A study of Mus musculus with 311 samples.

Results

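The livers with the least Ifi202b transcript in a mouse intercross were compared with the livers that had the most. The animals were chosen by the measured Ifi202b log ratio alone: the arrays were ranked by it, and the 60 lowest (the low set) were set against the 200 highest (the high set), out of 311 arrays in all. Another 50 animals ranked between the sets, and 1 array had no Ifi202b value. The animals were F2 progeny of an intercross between C57BL/6J and C3H/HeJ, both inbred, with females and males together, all on an ApoE null background and all on a Western diet rich in fat between 8 and 24 weeks of age. The labels divide the animals into no treatment or genotype groups, so every animal analysed shared the ApoE deficiency and the diet, and the sex of single animals is not labelled. Liver RNA of each animal, labelled with Cy3, was hybridised against a pool of equal portions of the samples' RNA, labelled with Cy5, on 1 array per animal. Values are read as log10 ratios of the animal over the pool, a base that was inferred. On this reading 0 is the pool's level and a value of -1 is 10-fold below it.

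Ifi202b codes for a DNA-binding protein of the PYHIN (interferon-inducible p200) family, whose members share a HIN domain that contacts DNA. Most family members also carry a pyrin domain, with which Aim2 assembles an inflammasome after it meets DNA in the cytosol. The Ifi202b protein lacks a pyrin domain and is known to restrain Aim2. The family's genes lie next to each other on distal chromosome 1, are induced by interferons, and in liver are known mainly from macrophages and other immune cells. The amount of Ifi202b transcript is known to vary between inbred strains, and the gene has been studied as a candidate in mouse lupus and obesity.

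The start-site sequences of the family members that the arrays measured are shown because these neighbouring genes differed in how they followed Ifi202b. They come from RefSeq's GRCm38.p6 assembly, which is of the strain C57BL/6J, and the C3H/HeJ sequence was not used here. Each run holds 250 bases before and 50 bases after the start site, on the minus strand, 5′ to 3′. Capitals mark matches, on either strand, to the core of the interferon-stimulated response element (GAAA, any 2 bases, then GAAA) or to the gamma-activated site (TTCNNNGAA), the sequences that interferon-activated STAT and IRF factors are known to bind.
Ifi202b, chr1:173982795-173983094: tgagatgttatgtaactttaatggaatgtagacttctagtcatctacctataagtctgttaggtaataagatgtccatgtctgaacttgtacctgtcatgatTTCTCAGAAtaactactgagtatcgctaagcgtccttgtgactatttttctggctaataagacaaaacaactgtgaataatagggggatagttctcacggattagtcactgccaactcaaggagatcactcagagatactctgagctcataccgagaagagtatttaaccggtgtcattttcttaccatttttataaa
Ifi203, the second of its start sites, chr1:173942443-173942742: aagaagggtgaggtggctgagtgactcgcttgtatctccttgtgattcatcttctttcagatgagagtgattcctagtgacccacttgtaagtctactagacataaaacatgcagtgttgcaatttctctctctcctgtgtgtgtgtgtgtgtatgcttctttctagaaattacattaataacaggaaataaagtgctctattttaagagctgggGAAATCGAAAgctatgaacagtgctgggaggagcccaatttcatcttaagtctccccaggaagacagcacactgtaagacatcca
Ifi205, chr1:174031706-174032005: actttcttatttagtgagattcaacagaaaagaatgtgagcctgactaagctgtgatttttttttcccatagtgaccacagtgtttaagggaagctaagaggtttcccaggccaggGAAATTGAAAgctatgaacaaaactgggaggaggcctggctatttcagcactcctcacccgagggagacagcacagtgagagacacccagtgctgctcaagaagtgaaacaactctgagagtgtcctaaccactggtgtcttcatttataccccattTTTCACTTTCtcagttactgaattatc
Ifi206, chr1:173491269-173491568: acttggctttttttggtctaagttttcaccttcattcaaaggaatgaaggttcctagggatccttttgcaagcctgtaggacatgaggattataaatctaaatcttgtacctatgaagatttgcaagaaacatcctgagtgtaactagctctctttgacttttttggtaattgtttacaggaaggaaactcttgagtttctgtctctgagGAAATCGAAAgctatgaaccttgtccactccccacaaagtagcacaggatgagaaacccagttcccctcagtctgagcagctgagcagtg

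The Ifi202b sequence held 1 gamma-activated match, TTCTCAGAA, whose first base lay 148 bases before the start, and no response element match. Ifi203 and Ifi206 each held the response element match GAAATCGAAA, beginning 35 and 40 bases before the start. The window of the first Ifi203 start site, which is not shown, held no match to either sequence. Ifi205 held GAAATTGAAA, beginning 134 bases before the start, and TTTCACTTTC after it. Of 32851 mouse promoters of the same length in the table, 3.44% held the response element core and 8.30% the gamma-activated site. The TATA box letters TATAAA, held by 13.6% of these promoters on either strand, were in the Ifi202b and Ifi205 windows only after the start, in Ifi202b as overlapping matches, and in the Ifi206 window 160 bases before it. A match describes letters in this window and says nothing of which factor bound there. All windows are those of the assembly's strain alone. Whether the Ifi202b start region of the other parent strain holds the same letters was not tested. A link between these matches and the genes' levels was not tested either. Ifi204 was measured but is named only.

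Ifi202b itself, which chose the animals, was read by the only probe for it. In the low set its log10 ratio ran from -1.27 through a median of -1.03 to -0.891, and in the high set from -0.152 through 0.0446 to 0.548. The sets cannot overlap, because the ranking defined them. Just inside and just outside the low set lay -0.891 and -0.882, and just outside and just inside the high set lay -0.166 and -0.152. The lower limit therefore passed through a run of closely spaced values. The widest empty stretch in the ranking lay higher, between -0.690 at rank 68 and -0.355 at rank 69. Of the 50 animals between the sets, 8 lay below this gap and 42 above it. Results are therefore also given for all 68 animals below the gap against all 242 above it, a division chosen after the values were seen.

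**Figure D1:**
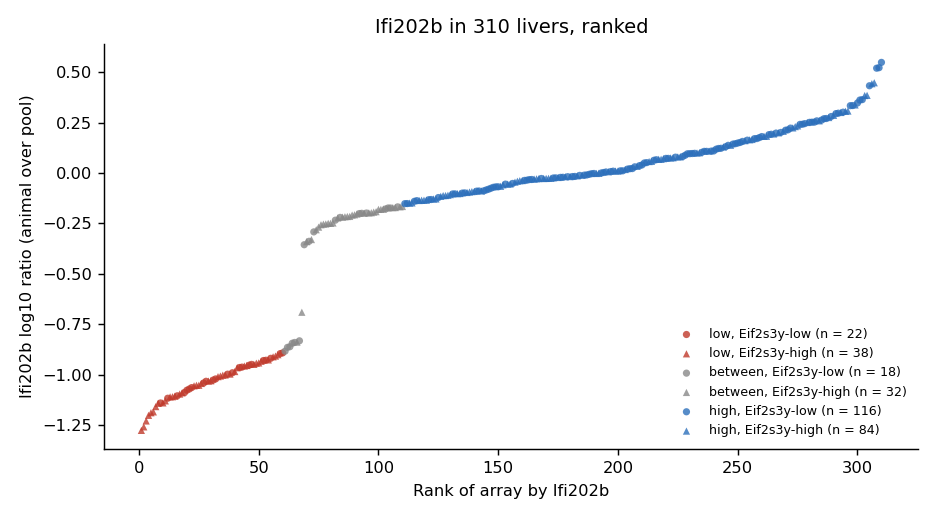
Ifi202b log10 ratio (animal over pool, vertical axis) of 310 arrays against their rank (horizontal axis), with colours for the low (60), between (50) and high (200) arrays, and circles and triangles for Eif2s3y-low and Eif2s3y-high animals. A steep step separates the 68 arrays up to -0.690 from the 242 arrays from -0.355 up.

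Eif2s3y, a Y-linked translation initiation factor gene, divided the arrays at a log10 ratio of -0.5 into Eif2s3y-high and Eif2s3y-low animals, and this division was a covariate in every comparison unless stated. In the low set 38 of 60 animals (63.3%) were Eif2s3y-high, against 84 of 200 (42%) in the high set (Fisher's exact test, two-sided, p = 0.00488). Below and above the gap the shares were 58.8% and 47.1% (exact p = 0.100). Of the 50 animals that neither set used, 2 of the 8 below the gap and 30 of the 42 above it were Eif2s3y-high. Medians of these 50 are raw, so they are also given within the Eif2s3y-low animals (6 and 12) where the pooled order differs from that of the sets. The SD over an array's probes had a median of 0.103 in the low set and 0.0998 in the high set. Of the 11 arrays with a pancreas or muscle marker raised 10-fold, 3 were in the low set and 7 in the high set. Hepatocyte markers were not called in either direction (0 of 5 measured, beside 9.82% of all genes tested). Their mean level had a median of -0.0385 in the low set and -0.0450 in the high set.

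Of 11386 genes tested, 1118 (9.82%) differed between the sets at an adjusted p under 0.05 (limma, Benjamini-Hochberg), with 542 (4.76%) higher and 576 (5.06%) lower in the low set. Most differences were small. The median absolute difference over all genes was 1.02-fold, and 127 genes (1.12%) passed the threshold with a fold of at least 1.2. Division at the gap gave 611 calls (5.37%, with 2.53% higher and 2.84% lower below the gap), of which 533 were among the 1118, and the fit with 5 principal components of the arrays as covariates gave 305 (2.68%, with 1.41% lower), of which 194 were. Of the called genes named here, 28 of 30 on chromosome 1 were called in the same direction at the gap and 26 with components. Of 73 others, 44 were at the gap and 20 with components. The components were computed only from genes not on chromosome 1. The fit with them therefore takes up variation of the other genes by construction.

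Genes on chromosome 1, where Ifi202b lies, were called more often than genes elsewhere. On that chromosome 116 of 616 genes (18.8%) passed, 53 of them higher and 63 lower in the low set, and on the other chromosomes 9.30% of 10770 genes did. With the arrays divided at the gap these shares were 15.4% and 4.79%, and with 5 components as covariates 14.6% and 2.00%. Chromosome 1 genes were left out of the components, so the contrast within this last pair was partly set in advance. Among the 50 genes with the smallest p, 35 lay on chromosome 1. The first gene from another chromosome, Lair1, an inhibitory collagen receptor of leukocytes, stood at rank 30, with levels 1.2-fold lower in the low set (adjusted p = 6.89e-08). Lair1 was named after its values were seen. In Eif2s3y-low animals its median was -0.0332 in the low set, 0.0307 in the high set and -0.0582 in the unused animals above the gap. In Eif2s3y-high animals these medians were -0.0968, -0.000706 and -0.0821. The unused animals above the gap thus lay on the low set's side.

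The called genes were densest a short way from Ifi202b. Counting measured genes in RefSeq order, 540 lay on the side of lower coordinates and 76 on the other. Between the 26th and the 50th measured gene on the lower side, 15 of 25 (60%) were called, 8 higher and 7 lower. The shares were 20% of the nearest 10 on that side, 33.3% of the next 15, and 24% between the 51st and the 100th. Beyond the 200th gene the share was 12.6%. On the other side 40% of the nearest 10 genes were called and 20% of the next 15. Genes in both directions were called on both sides of Ifi202b.

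**Figure D2:**
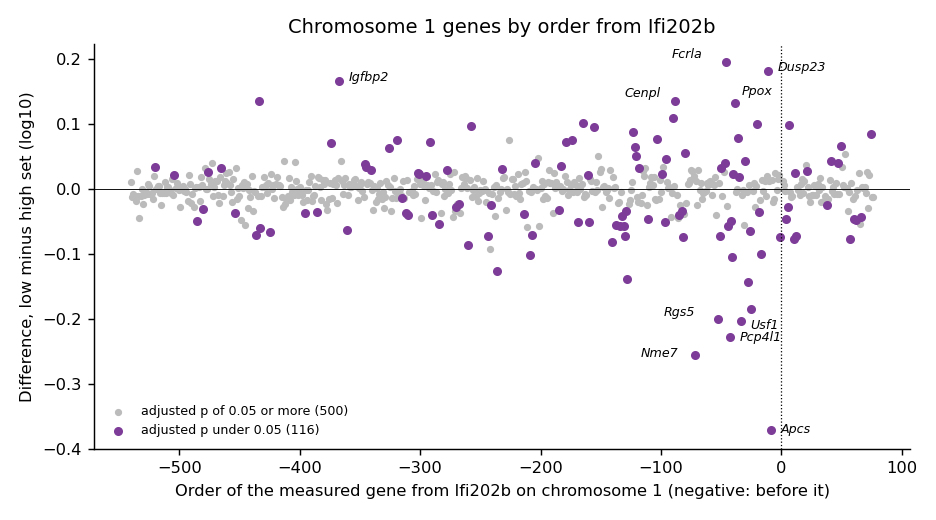
Difference in log10 ratio, low minus high set (vertical axis), of 616 genes of chromosome 1 by their order from Ifi202b (horizontal axis, negative on the side of lower coordinates). Purple points are the 116 genes with an adjusted p under 0.05, and the points farthest from 0, led by Apcs at -0.372, lie within 100 genes of the dotted line at Ifi202b, apart from Igfbp2 and a few others.

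Apcs, the gene for serum amyloid P component, a pentraxin that liver secretes as an acute phase protein in mice, showed the largest difference of all genes tested. It is the ninth measured gene from Ifi202b on the lower side. Its log10 ratio ran from -0.660 through a median of -0.413 to 0.0121 in the low set and from -0.344 through -0.0498 to 0.578 in the high set. The ranges overlapped, yet 59 of 60 low-set animals lay below the high-set median. The level was 2.35-fold lower in the low set (95% interval 2.12 to 2.62, adjusted p = 1.25e-36). Among the animals that neither set used, the 8 below the gap had a median of -0.357 and the 42 above it -0.102.

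Usf1, which codes for a basic helix-loop-helix transcription factor of lipid and glucose metabolism genes, had the smallest p. Its log10 ratio ran from -0.324 through -0.145 to -0.0131 in the low set and from -0.163 through 0.0370 to 0.233 in the high set. All 60 low-set animals were below the high-set median. Usf1 was 1.60-fold lower in the low set (95% interval 1.52 to 1.67, adjusted p = 8.5e-49). The 8 unused animals below the gap had a median of -0.120 and the 42 above it 0.00462, so these animals, which the comparison did not use, lay on the same sides.

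Other genes of this stretch were higher in the low set. Dusp23, which codes for a small dual-specificity phosphatase, ran from -0.00248 through 0.177 to 0.280 in the low set and from -0.263 through -0.00669 to 0.190 in the high set. Each of the 59 low-set animals with a value was above the high-set median, and the level was 1.52-fold higher (95% interval 1.43 to 1.61, adjusted p = 1.32e-27). Ppox, the mitochondrial protoporphyrinogen oxidase of heme synthesis, ran from -0.0760 through 0.0969 to 0.183 in the low set and from -0.231 through -0.0293 to 0.208 in the high set. It was 1.35-fold higher (95% interval 1.29 to 1.42, adjusted p = 1.09e-27), with 59 of 60 low-set animals above the high-set median. Its medians in the unused animals were 0.114 below the gap and 0.00692 above it. For Dusp23 the same medians, 0.0948 and 0.0543, were closer together than those of the 2 sets. The amidase gene Nit1 was 1.2-fold higher (adjusted p = 1.98e-26), and Dcaf8, a substrate receptor of the CUL4 ubiquitin ligase, 1.26-fold higher (adjusted p = 1.51e-30). Ppox, Nit1 and Dcaf8 were named after their values were seen.

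Farther out on the same side, Rgs5, a regulator of G-protein signalling known from pericytes, was 1.58-fold lower in the low set (95% interval 1.48 to 1.70, adjusted p = 1.09e-27). Nme7, which codes for a nucleoside diphosphate kinase family protein of centrosomes and cilia, was 1.80-fold lower (95% interval 1.59 to 2.03, adjusted p = 1.55e-15), with medians of -0.273 and 0.0496. Its high set reached down to -0.702, below the lowest low-set value of -0.420, so the sets overlapped widely at the low end. Pcp4l1, a Purkinje cell protein 4 relative, was 1.69-fold lower (95% interval 1.48 to 1.95, adjusted p = 6.02e-10). Igfbp2, far away at order -367 among the measured genes and coding for a hepatic insulin-like growth factor binding protein, was 1.47-fold higher in the low set (95% interval 1.27 to 1.69, adjusted p = 2.95e-05). Only 41 of 60 low-set animals were above its high-set median. On the other side of Ifi202b, Kmo, the kynurenine 3-monooxygenase of tryptophan breakdown, was 1.25-fold higher (95% interval 1.2 to 1.31, adjusted p = 4.72e-16), with 55 of 60 low-set animals above the high-set median. Kmo was named after its values were seen.

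The stretch holds 2 families of immune receptor genes, at orders from -46 to -6, with calls in both directions. Of all measured genes on the lower side, 60% were called between the 26th and the 50th and 33.3% between the 11th and the 25th. The family counts are thus not set apart from those of the stretch. Of 8 measured SLAM family receptors, which regulate lymphocyte and myeloid cell contacts, 3 were lower and 1 was higher in the low set. Slamf6, found on lymphocytes, ran from -0.392 through -0.130 to 0.163 in the low set and from -0.194 through 0.0528 to 0.390 in the high set. It was 1.53-fold lower (95% interval 1.42 to 1.64, adjusted p = 3.65e-22), with 57 of 60 low-set animals below the high-set median. Cd48 was 1.39-fold lower (adjusted p = 1.26e-11) and Cd84 1.16-fold lower (adjusted p = 0.000435), whereas Ly9 was 1.1-fold higher (adjusted p = 0.0159). Ly9 did not pass at the gap (adjusted p = 0.158). In the unused animals below and above the gap, Slamf6 had medians of -0.136 and -0.0676, in the order of the sets. Cd48 (-0.0106 and -0.175), Cd84 (0.0399 and -0.0923) and Ly9 (-0.0199 and 0.0178) had the reverse order. Within Eif2s3y-low animals Cd48 (0.00888 and -0.109) and Cd84 (0.0893 and -0.0192) again had the reverse order, and Ly9 (-0.0347 and -0.0463) did not.

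Among 5 measured Fc receptor genes, Fcer1g, the shared signalling gamma chain, was 1.28-fold lower in the low set (adjusted p = 1.34e-09) and the IgG receptor gene Fcgr3 1.14-fold lower (adjusted p = 0.000651). Fcrla, an Fc receptor-like gene of B cells, was 1.56-fold higher (95% interval 1.42 to 1.72, adjusted p = 2.78e-15), with 58 of 60 low-set animals above the high-set median. In the unused animals Fcer1g (-0.00817 below and -0.0759 above the gap) and Fcgr3 (0.0392 and -0.0566) had the reverse of the sets' order, also within Eif2s3y-low animals (0.0239 and -0.0427, and 0.0529 and -0.00138). The B and plasma cell marker list did not move with it as a whole: 1 of 8 measured markers was higher, beside 4.76% of all genes, and none lower. Its mean level had a median of 0.0206 in the low set and -0.0191 in the high set. Cd84, Ly9, Fcer1g and Fcgr3 were named after their values were seen.

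**Figure D3:**
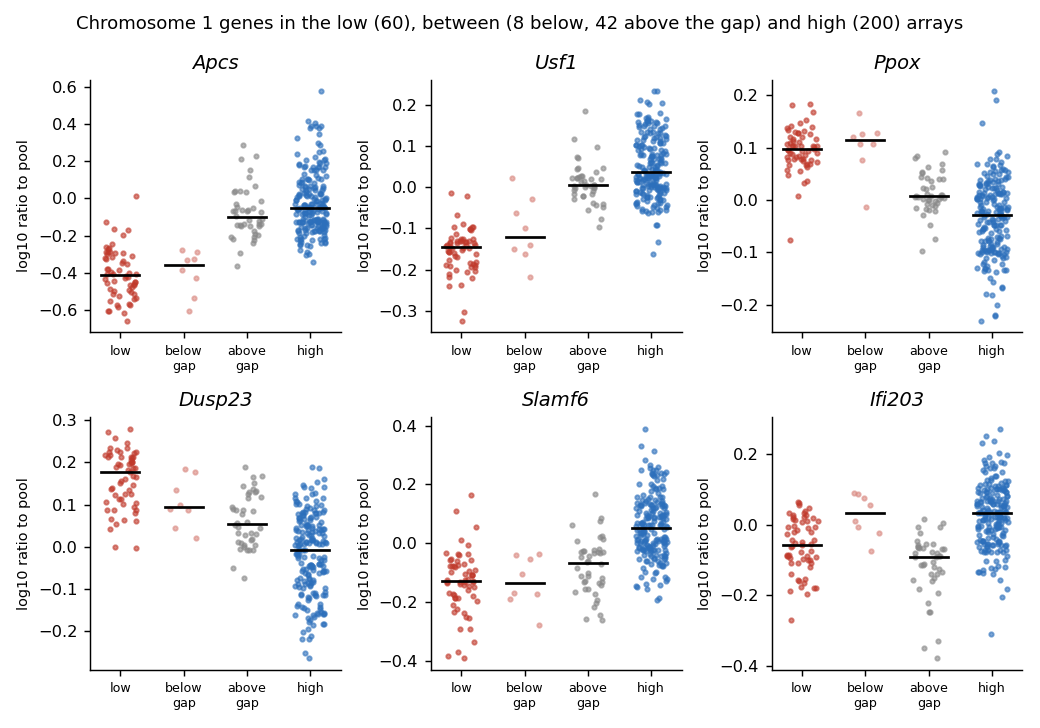
Log10 ratio to the pool (vertical axes) of 6 chromosome 1 genes in the low set (60), the between arrays below the gap (8) and above it (42), and the high set (200), with each point an animal and bars at medians. Apcs, Usf1 and Ppox in the between arrays sit near the set on their side of the gap, whereas Ifi203 is high below the gap (median 0.0345) and low above it (-0.0912).

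The other PYHIN genes, the closest relatives and neighbours of Ifi202b, differed by 1.19-fold or less between the sets. Of 4 measured, 1 was lower and none was higher in the low set, and at the gap and with components 1 was lower and 1 higher. Of all genes, 9.82% were called in the sets, 5.37% at the gap and 2.68% with components. Ifi203, the nearest measured gene, ran from -0.272 through -0.0564 to 0.0659 in the low set and from -0.309 through 0.0342 to 0.274 in the high set. It was 1.19-fold lower (95% interval 1.12 to 1.25, adjusted p = 1.5e-06), with 54 of 60 low-set animals below the high-set median. In the unused animals the order was turned, with a median of 0.0345 in the 8 below the gap and -0.0912 in the 42 above it. Ifi203 was lower in Eif2s3y-high animals (high-set medians of -0.00914 and 0.0604), which were more frequent above the gap. Within Eif2s3y-low animals the medians below and above the gap were 0.0663 and -0.0775. Divided at the gap, Ifi203 was 1.1-fold lower (adjusted p = 0.0266).

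Ifi204, whose protein binds DNA and modulates growth and interferon responses, had medians of -0.0184 and -0.0198 in the low and high sets and did not pass (difference 0.0211, adjusted p = 0.458). Divided at the gap it was 1.12-fold higher below the gap (adjusted p = 0.0306). With 5 components as covariates it was 1.19-fold higher in the low set than in the high set (adjusted p = 9.03e-08), so the call depended on the fit. The unused animals had medians of 0.0505 below the gap and -0.164 above it, and of 0.118 and -0.158 within Eif2s3y-low animals. Ifi205 had medians of 0.00998 and 0.0128 and a fold of 1.03 (95% interval 0.976 to 1.08, adjusted p = 0.562). Ifi206 had medians of 0.0354 and 0.0183 and a fold of 1.03 (95% interval 0.978 to 1.09, adjusted p = 0.497). The intervals of Ifi205 and Ifi206 do not hold differences near the size of the Apcs or Usf1 difference.

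Of the other genes beside Ifi202b, Fmn2, an actin-nucleating formin, was 1.11-fold lower in the low set (adjusted p = 9.65e-06), and Rgs7, a regulator of G-protein signalling, 1.07-fold lower (adjusted p = 0.00165). Fmn2 was 1.18-fold lower in Eif2s3y-high animals (adjusted p = 3.32e-06) and 1.025-fold lower in Eif2s3y-low animals (adjusted p = 0.678). Rgs7 was 1.05-fold lower in Eif2s3y-high animals (adjusted p = 0.163) and 1.09-fold lower in Eif2s3y-low animals (adjusted p = 0.0265). The adhesion gene Cadm3, the atypical chemokine receptor gene Ackr1 and the odorant receptor genes Olfr433 and Olfr414 did not pass, with adjusted p of 0.942, 0.297, 0.814 and 0.829.

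Interferon-inducible genes elsewhere in the genome showed small differences. Of 54 measured interferon-stimulated genes, 7 were lower and 1 was higher in the low set, 8 in all beside a background of 9.82%, and the list's median difference was -0.0116 on the log10 scale against 0.000943 over all genes tested. The lower genes were Irf8, Oas1g, Phf11d, Samd9l, Slfn2, Sp100 and Trim30a, and the higher one was Xaf1, an apoptosis regulator. Slfn2, a schlafen gene of T cells and macrophages, was 1.12-fold lower (95% interval 1.07 to 1.17, adjusted p = 3.8e-05). The antiviral RNA sensor gene Oas1g was 1.13-fold lower (adjusted p = 0.0136) and Trim30a, a ubiquitin ligase gene, 1.13-fold lower (adjusted p = 0.00465). Divided at the gap, 2 genes passed beside 5.37% of all genes. These were Slfn2, which was lower, and the ubiquitin-like modifier gene Isg15, 1.07-fold higher (adjusted p = 0.0132). The list's median difference was then 0.00016.

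None of 11 interferon-inducible GTPases passed in the low against the high set, beside 9.82% of all genes, with 9 of the 11 differences below 0. The largest differences were those of Gbp2b (1.22-fold lower, adjusted p = 0.144) and Tgtp1 (1.17-fold lower, adjusted p = 0.193). Of 17 receptor and signalling genes, Irf3 was 1.06-fold higher (adjusted p = 0.00194), and the receptor genes Ifngr1 (1.08-fold, adjusted p = 0.0158) and Tlr7 (1.09-fold, adjusted p = 0.0184) were lower. Of all genes, 4.76% were higher and 5.06% lower. At the gap Irf3 passed (adjusted p = 0.0106), and Ifngr1 and Tlr7 did not (adjusted p = 0.233 and 0.434). Of 11 genes of cytosolic DNA sensing and the inflammasome, the pathway in which Ifi202b acts, 3 were lower, beside 5.06% of all genes, and none was higher. These were the inflammatory caspase genes Casp4 (1.22-fold, adjusted p = 0.000992) and Casp1 (1.13-fold, adjusted p = 0.00115) and the nucleotide hydrolase gene Samhd1 (1.1-fold, adjusted p = 0.0048). None of these 3 passed when the arrays were divided at the gap, with adjusted p of 0.0801, 0.180 and 0.116.

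Each animal's mean over the interferon-stimulated genes places the animals that neither set used. Its median was -0.0258 in the low set, -0.000712 in the high set, 0.0332 in the 8 animals below the gap and -0.0692 in the 42 above it. The 42 animals with moderately reduced Ifi202b thus had lower interferon-stimulated levels than the 60 animals with the least Ifi202b. The order was the same within Eif2s3y-low animals (-0.0363 and 0.00785) and within Eif2s3y-high animals (-0.0729 and -0.0476). These 42 entered neither set. When the 60 lowest were set against all other animals, the 42 included, 1 interferon-stimulated gene passed (2.89% of all genes tested).

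**Figure D4:**
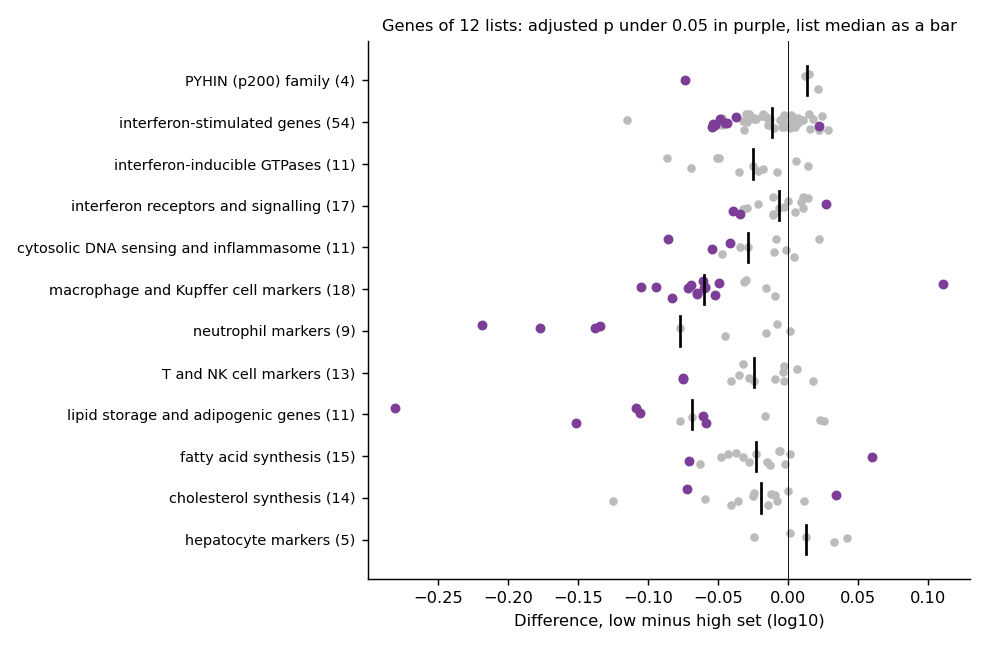
Difference in log10 ratio, low minus high set (horizontal axis), of the measured genes of 12 lists (number of genes in brackets), with genes at an adjusted p under 0.05 in purple and a bar at each list's median. Macrophage, neutrophil and lipid storage genes lie mostly left of 0, and the interferon lists lie near 0.

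Most macrophage markers were lower in the low set, by small amounts. Of 18 measured macrophage and Kupffer cell markers, 12 were lower and 1 was higher in the low set, beside 5.06% and 4.76% of all genes, with a list median of 1.15-fold lower. Ctss, a lysosomal cathepsin of antigen-presenting cells, ran from -0.353 through -0.0972 to 0.166 in the low set and from -0.323 through 0.0165 to 0.300 in the high set. The ranges overlapped widely, and 50 of 60 low-set animals lay below the high-set median. Ctss was 1.24-fold lower (95% interval 1.16 to 1.34, adjusted p = 2.88e-06). Cd5l, a Kupffer cell secreted protein gene, was 1.18-fold lower (adjusted p = 0.000111), the complement gene C1qa 1.15-fold lower (adjusted p = 0.000634), the lysosomal glycoprotein gene Cd68 1.12-fold lower (adjusted p = 0.00036) and the growth factor receptor gene Csf1r 1.15-fold lower (adjusted p = 0.00605). The exception was the hemoglobin scavenger receptor gene Cd163, 1.29-fold higher (adjusted p = 0.0411). In bulk liver, fewer cells of a type and less RNA per cell cannot be told apart.

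Divided at the gap, 8 macrophage markers were lower (2.84% of all genes were) and none was higher, and with 5 components as covariates 6 were lower (1.41% of all genes were). Cd163 did not pass at the gap (adjusted p = 0.0583). The animals' mean over the 18 markers ran from -0.222 through -0.0745 to 0.0660 in the low set and from -0.205 through 0.00572 to 0.239 in the high set. Its median was 0.00714 in the 8 unused animals below the gap and -0.113 in the 42 above it. The mean was lower in Eif2s3y-high than in Eif2s3y-low animals of the high set (-0.0646 and 0.0312). Within Eif2s3y-low animals the medians were 0.0291 below and -0.0563 above the gap in the unused animals, -0.0135 in the low set and 0.0312 in the high set. Many interferon-stimulated and PYHIN genes are known to be expressed in macrophages, and the part of the macrophage markers in their differences was not tested.

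Of 9 neutrophil markers, 4 were lower in the low set, beside 5.06% of all genes, and none was higher. Ngp, a granule protein gene, ran from -0.978 through -0.496 to 0.165 in the low set and from -1.11 through -0.208 to 1.17 in the high set. Ngp was 1.65-fold lower (95% interval 1.29 to 2.12, adjusted p = 0.00316), and the cathelicidin gene Camp was 1.5-fold lower (95% interval 1.2 to 1.88, adjusted p = 0.0102). The calprotectin genes S100a8 and S100a9 were 1.37-fold (adjusted p = 0.00515) and 1.36-fold lower (adjusted p = 0.0162), and S100a9 did not pass at the gap (adjusted p = 0.0583). The sets overlapped widely. The animals' mean over the 9 markers ran from -0.411 through -0.188 to 0.0728 in the low set and from -0.375 through -0.0965 to 0.756 in the high set. In the unused animals its median was -0.134 in the 8 below the gap and -0.1685 in the 42 above it. This was the reverse of the sets' order, also within Eif2s3y-low animals (-0.114 and -0.135). In Eif2s3y-high animals alone 0 markers passed as lower, and in Eif2s3y-low animals alone 1 did. The chemokine gene Ppbp of platelets was 1.40-fold lower (adjusted p = 0.000634), and Siglecf, a lectin gene of eosinophils, 1.42-fold lower (adjusted p = 0.000233). For Siglecf the unused animals above the gap were about as low as the low set. Medians were -0.214 and -0.179 in Eif2s3y-low animals, and -0.184 and -0.179 in Eif2s3y-high animals. Of 13 T and NK cell markers, Cd3g and Il7r were lower, and of 7 dendritic cell markers, Irf8 and Itgax, beside 5.06% of all genes. Of these 4 genes, Il7r alone passed at the gap. No pancreas (6) or skeletal muscle marker (8) passed, beside 9.82% of all genes.

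Lipid storage genes were lower in the low set in 6 of 11 cases, beside 5.06% of all genes, and none was higher. Lpl, the lipoprotein lipase that releases fatty acids from circulating triglyceride, ran from -0.415 through -0.0968 to 0.228 in the low set and from -0.467 through 0.0192 to 0.314 in the high set. It was 1.28-fold lower (95% interval 1.17 to 1.40, adjusted p = 3.3e-05), with 50 of 60 low-set animals below the high-set median. The lipid droplet genes Plin4 (1.42-fold, adjusted p = 0.0181) and Fitm1 (1.28-fold, adjusted p = 0.0273), the adipogenic receptor gene Pparg (1.14-fold, adjusted p = 0.0216) and the fatty acid transporter gene Cd36 (1.15-fold, adjusted p = 0.0463) were also lower. At the gap Cd36 and Pparg did not pass (adjusted p = 0.148 and 0.141), and with components Lpl alone of the 6 did (adjusted p = 0.0449). Lpl is also known from macrophages, whose markers were lower in the same animals, and their part in this result was not tested. When the 60 lowest were set against all other animals, 1 of the 11 lipid storage genes was lower. The animals' mean over the 11 genes had a median of -0.144 in the low set and -0.0844 in the high set. In the unused animals it was -0.222 in the 8 below the gap and -0.146 in the 42 above it. The 42 were thus about as low as the low set, also within Eif2s3y-low animals (-0.182 and -0.196). Fatty acid and cholesterol synthesis moved little, with list medians of -0.0228 and -0.0194 against 0.000943 over all genes tested. Of their differences, 13 of 15 and 12 of 14 were below 0. Few passed, beside 4.76% of all genes higher and 5.06% lower. Of 15 fatty acid synthesis genes, the carbohydrate-response factor gene Mlxipl was higher (1.15-fold, adjusted p = 9.43e-05) and the desaturase gene Scd2 lower (1.18-fold, adjusted p = 0.000623). Of 14 cholesterol synthesis genes, Ebp was higher, though not at the gap (adjusted p = 0.103), and Hsd17b7, a chromosome 1 gene, lower.

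Cidea, which codes for a lipid droplet protein that promotes droplet fusion, showed the largest fall of any called gene away from chromosome 1, 1.91-fold (95% interval 1.40 to 2.59, adjusted p = 0.00214). In Eif2s3y-high animals its log10 ratio ran from -1.30 through -0.539 to 1.03 in 38 low-set animals and from -1.23 through 0.162 to 0.977 in 84 high-set animals, and it was 2.96-fold lower (adjusted p = 0.00832). In Eif2s3y-low animals every value lay below the pool, the highest at -0.397 in the low set and -0.472 in the high set, with medians of -1.17 and -1.15 and a 1.02-fold difference (adjusted p = 0.938). The difference between Eif2s3y-high and Eif2s3y-low animals had an unadjusted p of 0.000736 and an adjusted p of 0.148 for the interaction in limma. It therefore did not pass over all genes. Cidea did not pass when the 60 lowest were set against all other animals (1.58-fold lower, adjusted p = 0.0964) or with components (1.58-fold lower, adjusted p = 0.0612). In the unused Eif2s3y-high animals its medians were -0.804 in the 2 below the gap and -0.644 in the 30 above it. Both were below the low-set median of -0.539, so the 30 animals above the gap lay on the low set's side.

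Hsd3b5, a steroid dehydrogenase gene known for its male-biased expression in mouse liver, showed the largest rise of any called gene away from chromosome 1, 2.13-fold (95% interval 1.58 to 2.89, adjusted p = 0.000161). In Eif2s3y-high animals it ran from -0.837 through 0.402 to 0.882 in the low set and from -1.38 through -0.146 to 0.918 in the high set, 3.41-fold higher (adjusted p = 0.00252). In Eif2s3y-low animals the medians were -1.21 and -1.23 and the fold was 1.1 (adjusted p = 0.642). The interaction had an adjusted p of 0.143. In the unused Eif2s3y-high animals its medians were 0.501 in the 2 below the gap and 0.446 in the 30 above it. Both were above the low-set median, so the 30 animals above the gap lay on the low set's side. With components Hsd3b5 was 1.34-fold higher and did not pass (adjusted p = 0.127). Cyp7b1, an oxysterol hydroxylase gene, was 1.32-fold (adjusted p = 0.000457) and Slco1a1, an organic anion transporter gene, 1.32-fold higher (adjusted p = 0.0254), so 3 of 10 male-biased genes were higher and none lower. Slco1a1 did not pass at the gap (adjusted p = 0.152), and none of the 3 passed with components. In Eif2s3y-high animals Cyp7b1 was 1.475-fold (adjusted p = 0.0149) and Slco1a1 1.54-fold higher (adjusted p = 0.0403). In Eif2s3y-low animals they were 1.13-fold and 1.06-fold higher and did not pass (adjusted p = 0.189 and 0.835). The 30 unused Eif2s3y-high animals above the gap had medians of 0.246 and 0.339, above the low set's 0.204 and 0.255. Of 11 female-biased genes, the sulfotransferase genes Sult2a1 (1.32-fold, adjusted p = 0.00613) and Sult2a2 (1.38-fold, adjusted p = 0.0476) were higher and none was lower. Of all genes, 4.76% were higher. The few called genes of both lists were thus higher, while the list medians were 0.0167 (male-biased) and 0.00345 (female-biased) on the log10 scale. No gene of either list passed with components. Without the Eif2s3y covariate Sult2a1 and Sult2a2 turned to lower in the low set, with differences of -0.0353 and -0.207.

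**Figure D5:**
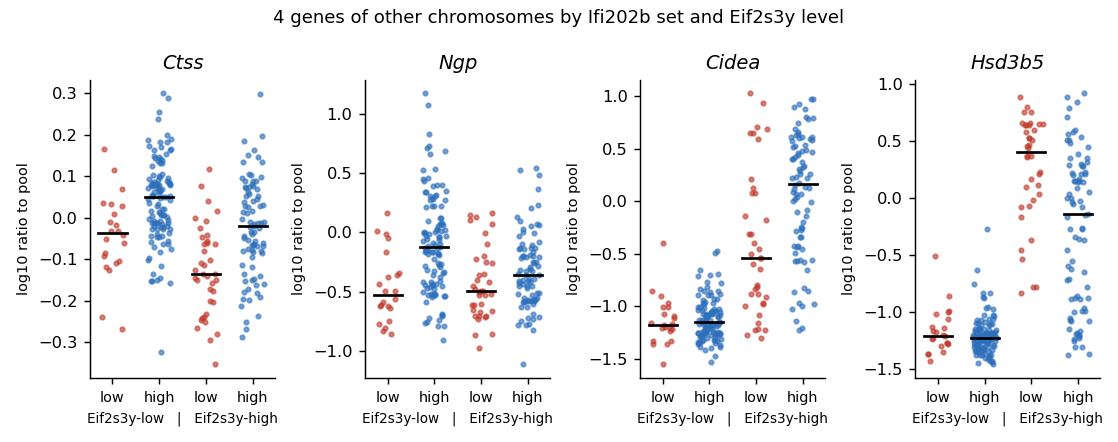
Log10 ratio to the pool (vertical axes) of Ctss, Ngp, Cidea and Hsd3b5 in the low (red) and high (blue) sets of Eif2s3y-low (left pair, 22 and 116) and Eif2s3y-high animals (right pair, 38 and 84), with bars at medians. Cidea and Hsd3b5 differ most between the sets in Eif2s3y-high animals (medians of -0.539 against 0.162, and of 0.402 against -0.146), while Ctss is lower in the low set of both.

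Calls were more numerous in Eif2s3y-high animals (636 genes, 5.59%) than in Eif2s3y-low animals (118 genes, 1.04%), of which 38 and 22 were in the low set. No gene passed the interaction test at an adjusted p under 0.05, while 1138 (9.99%) had an unadjusted p under 0.05. The smallest adjusted p, 0.0516, belonged to Dkk4, a Wnt antagonist gene, 1.69-fold higher in the low set of Eif2s3y-high animals (adjusted p = 0.00374) and 1.16-fold lower in that of Eif2s3y-low animals (adjusted p = 0.367).

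Other large differences away from chromosome 1 were those of Zdhhc11, a palmitoyltransferase gene (1.84-fold lower, adjusted p = 0.0345), the syntenin gene Sdcbp2 (1.67-fold lower, adjusted p = 0.000824), the odorant receptor gene Olfr707 (1.64-fold lower, adjusted p = 0.0433) and the ubiquitin-like gene Ubd (1.48-fold lower, adjusted p = 0.015). Zdhhc11 and Olfr707 had medians near 0 in both sets, at -0.0138 and 0.0377 for Zdhhc11, and values at the limits of -2 and 2 in a few animals. Neither passed when the arrays were divided at the gap (adjusted p = 0.335 and 0.165), nor did Ubd (adjusted p = 0.0766). The pro-apoptotic gene Bmf (1.37-fold, adjusted p = 0.00104) and the pseudogene Serpina4-ps1 (1.49-fold, adjusted p = 0.0111) were higher in the low set. In Eif2s3y-high animals they were 1.52-fold and 1.95-fold higher (adjusted p = 0.0124 and 0.0134). In Eif2s3y-low animals they were 1.19-fold and 1.03-fold higher and did not pass (adjusted p = 0.342 and 0.940). Of 12 glucocorticoid genes, Serpina6, the corticosteroid-binding globulin, was higher (1.16-fold, adjusted p = 0.00371), and the kinase gene Sgk1 lower (1.12-fold, adjusted p = 0.0023). Of 10 reference genes Gusb (1.15-fold, adjusted p = 2.79e-06) and Hprt (1.09-fold, adjusted p = 0.0138) were lower. Of 13 acute phase genes, Lcn2 was lower besides Apcs (1.32-fold, adjusted p = 0.00847). Beside these counts, 4.76% of all genes were higher and 5.06% lower. Differences below 0 numbered 10 of 12 glucocorticoid, 9 of 10 reference and 9 of 13 acute phase genes.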

How the data were processed

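The values, read as log10 ratios of animal over pool, are those the authors deposited in 1 table, limited to -2 and 2. Their normalisation is not stated in the sources at hand. The labels name the dyes, and base and sign were inferred. The slope of gene mean on gene variance was -0.846, and -0.649 with the 5% most variable probes left out. Log10 of sample over pool requires -1.15, natural log -0.5, log2 -0.347, and log10 of the opposite sign 1.15. The slope lay between those of log10 and natural log, so it does not settle the base, on which every fold rests. The direction was inferred from the labelled dyes and from the values, although 127 of 48205 array pairs had r under -0.3 (lowest -0.432). The slope was negative, as sample over pool requires. Against a pool of equal portions, the ratios of a gene should average near 1. Read as log10, they averaged 1.10 for Eif2s3y and 0.922 for Ifi202b, and 15.3 and 3.13 with the sign reversed. Missing were 0.745% of values, and 1990 were at a limit. No further normalisation was applied. Precision is limited by the number of arrays, each of 1 animal.

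Of 23388 probes, the platform's annotation gave 13645 to 1 gene, 48 to several and 9695 to none. RefSeq's GRCm38.p6 table updated names (12653 through Entrez IDs, 214 through current and 93 through older symbols, 4 through accessions; 681 kept the platform's name) and gave gene order. Strain variants under the probes were not analysed here. A gene's value is that of its probe with fewest gaps, the first at ties, among probes present on at least 95% of arrays. Differences, low minus high set, were fitted with limma 3.58.1 (lmFit, eBayes) in R 4.3.3 with the Eif2s3y class as covariate, two-sided, Benjamini-Hochberg adjusted over 11386 genes at 0.05. On simulated data of this comparison over 11386 genes, 76% of genes changed 1.1-fold and 96% of those changed 1.2-fold were recovered, and 7.96% of calls were wrong. The simulation drew independent normal noise for each gene and changed 50 genes at each fold. Correlation between genes was not simulated, so 7.96% does not estimate the share of wrong calls reported here.

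Members and lists (443 genes, 317 measured) were chosen with earlier results of these data known. Named genes are the measured PYHIN genes, the 5 nearest on each side, the 10 largest called differences on chromosome 1 and 12 in each direction elsewhere, up to 6 called genes of each list or otherwise the 2 largest, Hsd11b1 (not analysed here) and Eif2s3y. Others, such as Isg15, Xaf1, Sp100, Cd68, C1qa and Csf1r, were named after their values were seen. Alternatives varied the covariate, centring, sets, probe choice, values at the limits, F2 numbers, Eif2s3y classes, components and fit. Where 1 sample's title and source name disagree on the F2 number, the title was taken.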

Additional observations from a re-analysis of the deposited data

How the results depend on the processing

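Over 20 alternatives, the 103 named genes that passed gave 1619 values with the same direction and side of the threshold, 396 with the same direction that no longer passed, and 10 with the opposite direction. Each setting below gives the number of genes higher and lower in the low set where these moved by over 1.5 times from 542 and 576. The 60 lowest against all other animals gave 139 and 190, the lowest 25% of arrays (77) against the high set 902 and 975, Ifi202b as a linear term 820 and 911, and probes present on every array 382 lower. F2 numbers up to the median gave 60 and 110, F2 numbers above it 96 and 117, Eif2s3y-high animals alone 324 and 312, Eif2s3y-low animals alone 36 and 82, 5 components as covariates 145 and 160, and division at the gap 288 and 323. Of 116 chromosome 1 calls, the numbers were 73 against all other animals, 52 and 51 in the lower and upper F2 numbers, and 46 in Eif2s3y-low animals. Interferon-stimulated calls, 8 as reported, were 15 with no covariate, 1 against all others, 14 with the lowest 25%, 14 with the linear term, 1 and 0 in the lower and upper F2 numbers, 3 in Eif2s3y-high and 0 in Eif2s3y-low animals, 1 with components and 2 at the gap. Macrophage markers lower, 12 as reported, were 5 against all others, 6 and 4 in the lower and upper F2 numbers, 2 in Eif2s3y-low animals and 6 with components. Neutrophil markers lower, 4 as reported, were 0 with probes on every array, 0 in either range of F2 numbers, 0 in Eif2s3y-high and 1 in Eif2s3y-low animals. Lipid storage genes lower, 6 as reported, were 1 against all others, 2 with probes on every array, 0 and 3 in the lower and upper F2 numbers, 2 in Eif2s3y-high and 0 in Eif2s3y-low animals, and 1 with components. Settings that use fewer animals or probes have fewer of them by construction; for the others the cause was not tested. The Eif2s3y-high share differed by 21.3 percentage points between the sets, by 16.3 in the lower F2 numbers (Fisher's exact p = 0.115) and by 11.7 at the gap (exact p = 0.100). Of genes that passed, the difference turned with no covariate for Serpina6 (-0.0166), Sult2a1 (-0.0353) and Sult2a2 (-0.207), in Eif2s3y-low animals for Derl3 (-0.0176), Dkk4 (-0.0629) and Ly9 (-0.00179), and with components for Cd36 (0.00191), Mmp13 (0.00857), Ubd (0.00698) and Vwf (0.000638). Of 20 genes that had not passed, 6 passed under at least 1 alternative, 12 values in all. These were Ifi204 with components (0.0763) and at the gap (0.0511), Isg15 at the gap (0.03), Ass1 and Hal, higher with the 40 lowest and the linear term (Hal also with the lowest 25%), and Gbp2b and Tgtp1, lower with the linear term and, in turn, with no covariate and with the lowest 25%. Of the same 20, 13 turned at least once. With components these were Ass1 (-0.00241), Cadm3 (0.00675), Cftr (0.0362) and Hal (-0.0151). With the 40 lowest they were Cadm3 (0.00731), Cldn7 (-0.00641) and Tnnc2 (-0.00912). In the lower F2 numbers they were Cadm3 (0.0109), Cftr (0.00347) and Eif2s3y (0.00113), and in the upper Olfr414 (0.00624), Olfr433 (-0.00495), Prss2 (-0.029) and Tnnc2 (-0.0176). In Eif2s3y-high animals they were Cadm3 (0.00393), Olfr414 (0.00402), Tnnc2 (-0.0523) and Tnnt3 (-0.0259), and in Eif2s3y-low animals Cftr (0.00685) and Olfr433 (-0.0123). With no covariate they were Eif2s3y (0.36), Ifi205 (-0.00211) and Kdm5d (0.241), and with the 11 arrays of raised pancreas or muscle markers left out Tnnc2 (-0.0114) and Tnnt3 (-0.00275). Division at the gap and leaving out those 11 arrays were chosen after seeing the data. Another Ifi202b probe could not be tried, since the array holds 1.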
